A study of Mus musculus with 8 samples.

Results

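Myelin is the membrane that oligodendrocytes wrap around axons in the brain. The genes described here encode its structural proteins, taken as the rows of the authors' deposited comparison whose gene name is Mbp, Mog, Mag, Mobp, Cnp, Cldn11, Opalin, Mal or Plp2. All 9 were found, among 17171 genes, each as 1 row; 8 of them encode known proteins of central myelin, and Plp2 does not. RNA came from the hippocampus of C57BL/6 mice aged 2 months and was sequenced from stranded mRNA libraries. SUMO2-cKO mice (Sumo2 f/f;Emx1-Cre, 4 samples) carried floxed Sumo2 alleles and Emx1-Cre, and Control mice (Sumo2 f/f, 4 samples) carried the same floxed alleles without Cre. Emx1-Cre is a recombinase expressed in the dorsal forebrain lineage, which gives rise to excitatory neurons, astrocytes and part of the oligodendrocytes, so other cells of the tissue keep intact alleles. The series asks how deletion of Sumo2, a small ubiquitin-like modifier joined to other proteins, changes gene expression.

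In compact myelin the cytoplasmic faces of the membrane are held together by small basic proteins, while the outer, innermost and lateral parts of the sheath stay non-compact and carry adhesion molecules, enzymes and tight junctions. Oligodendrocytes switch on these genes together when they mature, under transcription factors that include SOX10 and MYRF. A central myelin sheath is made by mature oligodendrocytes alone, so in whole hippocampus these messages mark that cell type, and fewer oligodendrocytes cannot be told apart from less RNA per oligodendrocyte in these bulk samples.

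Promoter windows were examined because the genes are known to be switched on together. RefSeq windows on GRCm38.p6, from 250 bases before to 50 bases after the start, were present for 7 of the 9 genes; Mbp and Plp2 had no entry. Each window was searched on both strands for the letters CTTTGT, the core recognised by SOX proteins, and for CTGGCAC or CTGGTAC, the core recognised by MYRF. Shown 5' to 3' along the gene are bases before the start of Mobp, which held the most SOX letters. The same is shown for Mog, Mag and Cnp, each of which held MYRF letters. Each printed stretch ends before whichever of the RefSeq and GENCODE starts comes first. For Mobp and Cnp (215 bases each) and Mag (240 bases) it therefore stops short of the RefSeq start, from which distances below are counted. Capitals mark a match on either strand, so that ACAAAG stands for the SOX letters read on the other strand and GTACCAG for the MYRF letters.
Mobp, chr9:120149492-120149706, plus strand: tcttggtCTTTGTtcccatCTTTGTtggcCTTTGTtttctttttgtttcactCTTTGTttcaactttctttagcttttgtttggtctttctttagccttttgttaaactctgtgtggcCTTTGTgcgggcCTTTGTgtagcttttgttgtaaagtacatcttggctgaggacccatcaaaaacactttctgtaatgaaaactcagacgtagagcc
Mog, chr17:37023399-37023648, minus strand: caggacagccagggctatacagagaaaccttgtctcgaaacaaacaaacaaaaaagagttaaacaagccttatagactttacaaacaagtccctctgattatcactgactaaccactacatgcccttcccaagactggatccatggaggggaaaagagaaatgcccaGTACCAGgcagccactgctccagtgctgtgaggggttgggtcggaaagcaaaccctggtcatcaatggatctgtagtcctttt
Mag, chr7:30914874-30915113, minus strand: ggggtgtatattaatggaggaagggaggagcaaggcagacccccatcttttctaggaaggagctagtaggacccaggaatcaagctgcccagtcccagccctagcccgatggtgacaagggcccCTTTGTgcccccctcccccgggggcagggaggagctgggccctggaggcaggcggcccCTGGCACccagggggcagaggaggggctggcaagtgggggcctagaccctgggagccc
Cnp, chr11:100574689-100574903, plus strand: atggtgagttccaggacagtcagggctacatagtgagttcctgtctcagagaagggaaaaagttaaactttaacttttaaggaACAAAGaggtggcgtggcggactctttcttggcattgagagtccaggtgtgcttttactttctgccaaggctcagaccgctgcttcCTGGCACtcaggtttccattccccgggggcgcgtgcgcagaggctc

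The Mobp window held the SOX letters 6 times, all in the same orientation, with their first bases between 243 and 120 bases before the RefSeq start. Of all 32851 windows of the same length, 6147 (18.7%) held these letters at least 1 time, 11 (0.0335%) held them 4 times or more, and Mobp was the 1 window with 6. The abundance of these letters in Mobp was noticed in the sequence before it was counted, and it is given as a description with no test. Mag and Cnp held the SOX letters 1 time each and Opalin 2 times, which made 4 of the 7 genes with a match. MYRF letters stood 83 bases before the RefSeq start of Mog, 68 before that of Mag and 81 before that of Cnp, and 36 bases after that of Opalin. They were found in 4 of the 7 genes and in 7.10% of all windows. Matches of the E-box letters CAGCTG or CAGATG that OLIG factors recognise, were found in Opalin (2 times) and in no other of the 7 genes, against 30.6% of all windows. Cldn11 and Mal held none of these letters in this window.

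**Figure D1:**
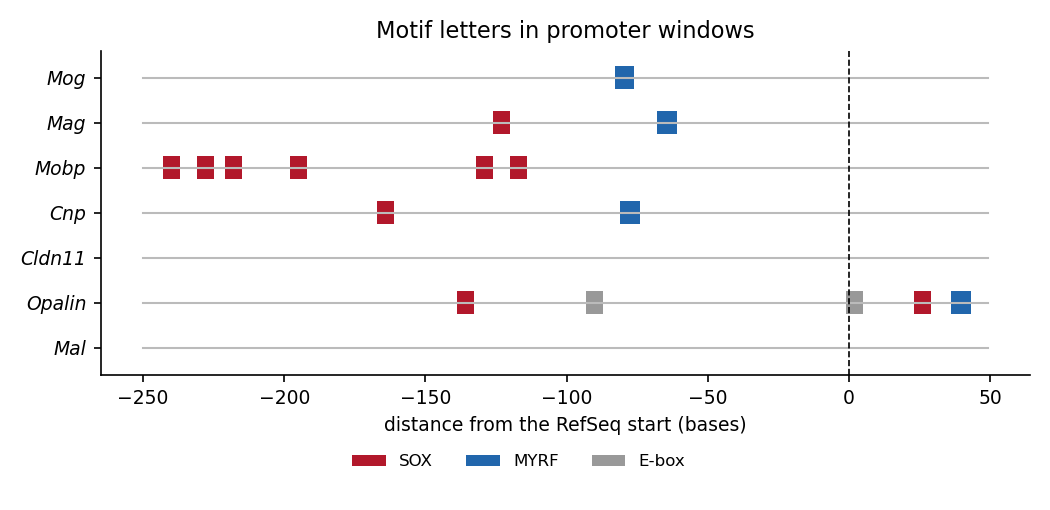
Positions of motif letters in the promoter windows of the 7 genes with a RefSeq entry. The x axis is the distance from the RefSeq start in bases, with that start at the dashed line, and each block is a match on either strand. Mobp carries 6 SOX blocks, Mog, Mag and Cnp carry a MYRF block between 83 and 62 bases before the start, and Cldn11 and Mal carry none.

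For all 8 genes that encode central myelin proteins the authors' deposited table gives a log2 fold change (SUMO2-cKO over Control) below 0, between -0.52 and -0.39, with a median of -0.42. That is a ratio of 0.696 for Mobp, the lowest, and of 0.765 for Cnp, the highest. The authors' DESeq2 test called Mog alone among the 9 genes, as lower, at an adjusted p under 0.05. Over all genes, 91 of 17171 (0.530%) were called lower and 166 (0.967%) higher. The median log2 fold change of all genes was -0.00, and 8607 of 17171 were negative. At an unadjusted p under 0.05, 7 of the 9 genes were lower and none was higher, against 4.17% of all genes lower and 4.20% higher. These 9 genes were chosen with earlier results of the same data known, so their shared direction carries no independent weight.

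Values here are the authors' log2 fold changes with the standard error (SE) obtained as the fold change divided by the deposited Wald statistic, and with a 95% normal interval. Levels in single samples and depth per library were not analysed here, because the 8 columns of sample values carry names that match none of the sample labels. The labels do not say that samples came from separate animals, so the p-values reflect how far these samples scatter, and that scatter may be technical. Sumo2 itself was not lower in the samples labelled SUMO2-cKO. The authors' deposited table puts it at 0.42 on the log2 scale (SE 0.252, 95% interval -0.07 to 0.92, DESeq2 adjusted p = 0.761). The sources used here do not give the part of the gene that is removed. A value for the whole gene therefore does not show whether the deletion took place. The targeted gene does not check the labels either, and every direction below is that of the samples labelled SUMO2-cKO. Sumo3, its close relative, was higher at 0.70 (SE 0.0934, adjusted p = 1.1e-10) there.

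Among the proteins of compact myelin, Mbp (ENSMUSG00000041607, chromosome 18, 82475146 to 82585637, GRCm38) encodes myelin basic protein, which glues the cytoplasmic faces of the membrane together. In the authors' deposited table it stood at -0.42 (SE 0.167, 95% interval -0.74 to -0.09, DESeq2 adjusted p = 0.302). Mobp (ENSMUSG00000032517, chromosome 9, 120149707 to 120181484) encodes another small basic protein of the same cytoplasmic layer. It had the most negative value of the 9 genes in the authors' deposited table, -0.52, but also the second-widest error of the 8 myelin genes (SE 0.195, 95% interval -0.91 to -0.14, adjusted p = 0.212). The intervals of Mbp and Mobp both lay below 0, and neither gene passed the adjusted threshold.

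Mal (ENSMUSG00000027375, chromosome 2, 127633226 to 127656695) encodes a membrane proteolipid that takes part in sorting proteins to the myelin membrane. Its log2 fold change was -0.39 with the widest error of the 8 (SE 0.198, 95% interval -0.78 to 0.00, adjusted p = 0.598 per the authors' deposited table). The interval just included 0, the 1 of 8 to do so. Cldn11 (ENSMUSG00000037625, chromosome 3, 31149920 to 31164324) encodes the claudin that forms tight junction strands between the turns of the sheath. It had the second most negative value, -0.47 (SE 0.160, 95% interval -0.79 to -0.16, adjusted p = 0.125 per the authors' deposited table), and came next after Mog in order of p.

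Mog (ENSMUSG00000076439, chromosome 17, 37010743 to 37023398) encodes an immunoglobulin-like protein of the outermost myelin surface. It was lower at -0.45 (SE 0.129, 95% interval -0.70 to -0.20, ratio 0.732, adjusted p = 0.0385 by DESeq2 in the authors' deposited table). Its value was next in size after those of Mobp and Cldn11, and its SE was the smallest of the 8. Mag (ENSMUSG00000036634, chromosome 7, 30899176 to 30914873) encodes a sialic acid binding adhesion protein of the innermost layer, next to the axon. In the authors' deposited table it stood at -0.39 (SE 0.181, 95% interval -0.74 to -0.03, adjusted p = 0.481). Inner and outer surface proteins thus had overlapping intervals.

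Cnp (ENSMUSG00000006782, chromosome 11, 100574904 to 100591729) encodes a cyclic nucleotide phosphodiesterase that keeps cytoplasmic channels in the sheath open. Its value was -0.39 (SE 0.145, 95% interval -0.67 to -0.10, adjusted p = 0.221 per the authors' deposited table). Opalin (ENSMUSG00000050121, chromosome 19, 41061710 to 41077113) encodes a glycosylated transmembrane protein of oligodendrocytes. It stood at -0.42 (SE 0.156, 95% interval -0.73 to -0.12, adjusted p = 0.207 per the authors' deposited table). Both intervals lay below 0, and neither gene passed the adjusted threshold.

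**Figure D2:**
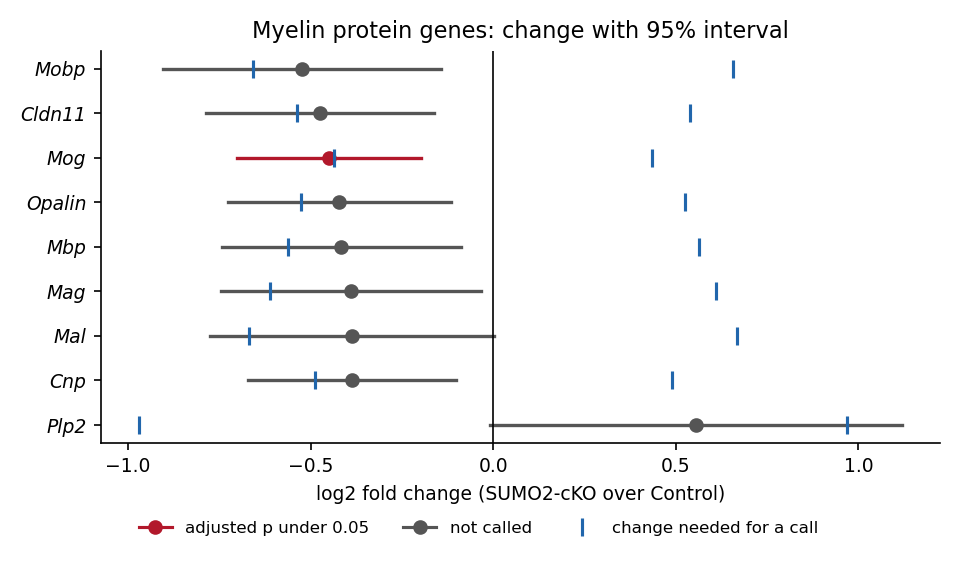
Log2 fold change (SUMO2-cKO over Control) of the 9 genes from the authors' deposited table, with 95% normal intervals as bars. Ticks mark the change each gene would need, at its own SE, to reach the largest p called over all genes. Mog, at -0.45, is the gene past its tick (-0.43), the other 7 myelin genes lie short of theirs, and Plp2 lies on the positive side.

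The 8 myelin genes differed little from one another. Their log2 fold changes in the authors' deposited table had an SD of 0.0488 and a range of 0.137, while the SE of each gene was between 0.129 and 0.198. A log2 fold change anywhere between -0.67 and -0.20 lay within all 8 intervals. Differences between members were not tested, since the covariance of their estimates is unknown. The range of the 8 values was no wider than most single SEs, so no order is read from them, and that Mog was called and the others were not does not show that Mog changed more.

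Mog, the called gene, had the smallest SE of the 8. In the authors' deposited table the largest unadjusted p among called genes was 0.000748, which corresponds to an absolute Wald statistic of 3.37. At the SE of Mog a log2 change of 0.435 was enough for a call, and at that of Mal 0.667 was needed. The SE of every one of the 9 genes was above the median SE of the table, 0.0940. The SE of Mog stood at the 61.6th percentile of all genes and that of Mal at the 72.1st. For comparison, the median SE was 0.163 for the 8 myelin genes, 0.0480 for 8 neuron markers, 0.0617 for 8 astrocyte markers and 0.526 for 8 choroid plexus markers. Of the 12376 genes with an SE no larger than that of Mal, 69 (0.558%) had a log2 fold change at or below that of Cnp, and the 8 myelin genes were among these 69. The limits of that count were set by the members, so it is a description only.

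**Figure D3:**
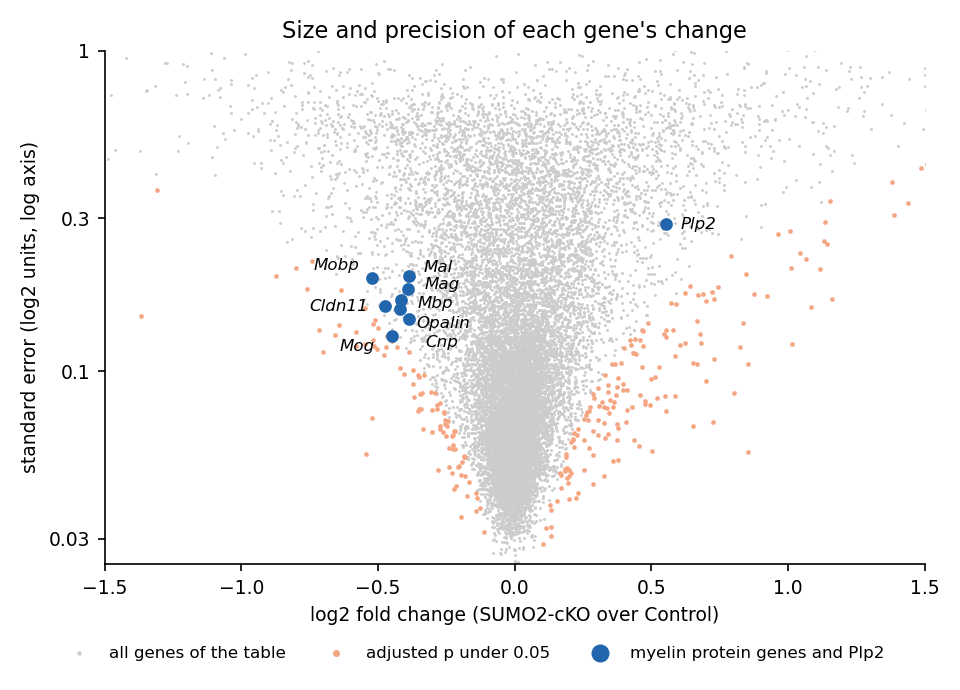
Log2 fold change (x axis, SUMO2-cKO over Control) against its SE (y axis, log scale) for the genes of the authors' deposited table. The 113 genes outside a log2 fold change of 1.5 in either direction or an SE of 1 are not drawn. The 8 myelin genes form a tight group between -0.52 and -0.39 at SEs of 0.129 to 0.198, with Plp2 apart at 0.55 and an SE of 0.288.

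Plp2 did not follow the other 8 genes. Plp2 (ENSMUSG00000031146, chromosome X, 7667941 to 7671390) encodes a small membrane proteolipid with a MARVEL domain, which it shares with Mal, and is known from epithelial and other non-myelinating cells rather than as a component of the myelin sheath. The authors' deposited table puts it at 0.55 (SE 0.288, 95% interval -0.01 to 1.12, DESeq2 adjusted p = 0.614), the single positive value of the 9. No call was made, and its interval overlapped none of the 8 others apart from that of Mal, which ended at 0.00. Sequence also limits this value, since 71.0% of the 50-base windows of its coding transcripts occur exactly in transcripts of other genes. Of all its windows, 66.2% occur in Gm6169 on chromosome 13, 15.5% in the processed pseudogene Gm13669 on chromosome 2 and 17.8% in Prickle3 (a window can occur in more than 1 of them), whose exons lie over those of Plp2 on the opposite strand. How the authors' counting treated such reads is not stated in the labels or headers.

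The coding transcripts of the 8 myelin genes shared almost no sequence with other genes. Exons found only in their other transcripts were not searched. No 50-base window of the coding transcripts of Mog, Mag, Cnp, Cldn11, Opalin or Mal occurred in another gene. The share was 0.361% for Mbp and 0.192% for Mobp. Exons of Cnp overlapped those of Dnajc7 on the opposite strand over 4.23% of their bases, and those of Mobp overlapped the gene model Gm38642 on the same strand over 1.15%. The 9 genes lie on 9 different chromosomes. Of 132 other measured genes within 500 kb of the 8 myelin genes, none was called lower in the authors' deposited table and 2 were called higher, against 0.530% of all genes lower and 0.967% higher. A count this small is near that background, and the 2 genes were named after their values were seen. Tll2, a secreted metalloprotease gene 5639 bases from Opalin, stood at 1.39 (SE 0.308, adjusted p = 0.00127). Lgi4, a secreted protein known from peripheral nerve myelination and located 144468 bases from Mag, stood at 0.38 (SE 0.0663, adjusted p = 5.6e-06 per the authors' deposited table). Median log2 fold changes of the neighbours of single myelin genes were between -0.06 and 0.05.

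A wider list, most of it genes for proteins of the myelin membrane or its junctions, pointed the same way. In the authors' deposited table all 23 measured genes of that list had values below 0. They lay between -0.65 and -0.02 (median log2 fold change -0.32). DESeq2 called 5 lower and none higher, against 0.530% of all genes called lower. At an unadjusted p under 0.05, 17 of the 23 were lower and none higher, against 4.17% and 4.20% of all genes. Lpar1, a lysophosphatidic acid receptor, was lower at -0.52 (SE 0.140, adjusted p = 0.0222), and Pllp, a MARVEL proteolipid of myelin and so a relative of Mal, at -0.36 (SE 0.0976, adjusted p = 0.0256). The other 3 called genes were Ermn, an actin-binding protein, at -0.55, the tetraspanin Tspan2 at -0.48 and the orphan-type receptor Gpr37 at -0.37 in the authors' deposited table. These 5 genes had SEs between 0.0976 and 0.140, and 4 of them (all but Lpar1) had an SE below the smallest among the 8 myelin genes, 0.129. At the other end of the list Cd81, a tetraspanin expressed in many cell types, stood at -0.02 (SE 0.0346); it was picked after its value was seen.

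Enzymes and regulators gave smaller medians. All 12 genes of the myelin lipid list were negative in the authors' deposited table (median -0.19). DESeq2 called 2 of them lower, against 0.530% of all genes. Aspa, which cleaves N-acetylaspartate in oligodendrocytes, was lower at -0.50 (SE 0.136, adjusted p = 0.0241). Plekhb1, a pleckstrin homology domain protein and not an enzyme, was lower at -0.29 (SE 0.0853, adjusted p = 0.0464). Ugt8a, which makes the galactolipids of myelin, had a value of -0.34 (SE 0.120, adjusted p = 0.164 per the authors' deposited table). Of 13 transcription and RNA-binding factors of oligodendrocytes, 12 were negative (median -0.24) and 3 were called lower, against the same 0.530%. Myrf, the factor whose letters were searched above, was lower at -0.39 (SE 0.115, adjusted p = 0.0499 by DESeq2 in the authors' deposited table), just under the threshold. The others were Carhsp1, an RNA-binding protein, at -0.37 and Olig1, a basic helix-loop-helix factor of the lineage, at -0.30. Sox10, named because its letters were searched, had a value of -0.23 (SE 0.107, adjusted p = 0.478), and St18, a zinc finger gene named after its value was seen, was the 1 positive member at 0.22 (SE 0.0703, adjusted p = 0.0800 per the authors' deposited table).

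Markers of precursor cells and of newly formed oligodendrocytes were pooled in a list of 13 measured genes. Its median in the authors' deposited table was -0.09, nearer to 0 than that of the 8 myelin genes (-0.42). The list was not split by stage, so this median does not place newly formed cells nearer to 0. Its members lay between -0.64 and 0.07, and 10 of them were negative. The 3 positive members were Cspg4 at 0.06, Sox6 at 0.06 and Ptprz1 at 0.07. DESeq2 called 1 of them lower, against 0.530% of all genes. It was Enpp6, a choline phosphodiesterase of newly formed oligodendrocytes, at -0.64 (SE 0.179, adjusted p = 0.0320). Neu4, a sialidase, had a value of -0.33 (SE 0.128, adjusted p = 0.248) and Tns3, an adhesion protein, of -0.17 (SE 0.0701, adjusted p = 0.304). The difference between this list and the myelin genes was not tested. A list of 13 axonal genes held neurofilament subunits and proteins at or beside nodes and paranodes. Of these, 10 were negative, with a median of -0.03. Nefl at -0.20 and Nefm at -0.17, both neurofilament subunits, were called lower in the authors' deposited table, against 0.530% of all genes. No node or paranode gene of the list was called. Cntnap2, an adhesion protein beside the paranode, had a value of -0.18 (SE 0.0589, adjusted p = 0.108).

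No marker of other cells, in 6 lists of 8 genes each, was called by DESeq2 in the authors' deposited table. Over all genes 0.530% were called lower and 0.967% higher, so no call among so few markers is near that background. The difference of these markers from the myelin genes was not tested. The medians were -0.04 for neurons, 0.07 for astrocytes and -0.03 for microglia. For endothelial and mural markers the median was 0.20, with 7 of 8 positive and 4 higher at an unadjusted p under 0.05, a level that 4.20% of all genes reached as higher and 4.17% as lower. For meningeal fibroblasts it was 0.36, with 7 of 8 positive and 2 at that level. For the choroid plexus it was -0.21, with all 8 negative and none at that level. Among genes of peripheral nerve, where Schwann cells make the myelin, the 6 analysed here had a median of -0.01 with none called; Cdh19 stood at -0.47 (SE 0.232), Egr2 at 0.12 (SE 0.239) and Prx at 0.16 (SE 0.327). Pdgfra stood in both the fibroblast and the precursor list. The part of these other cells in the values of the myelin genes was not tested.

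**Figure D4:**
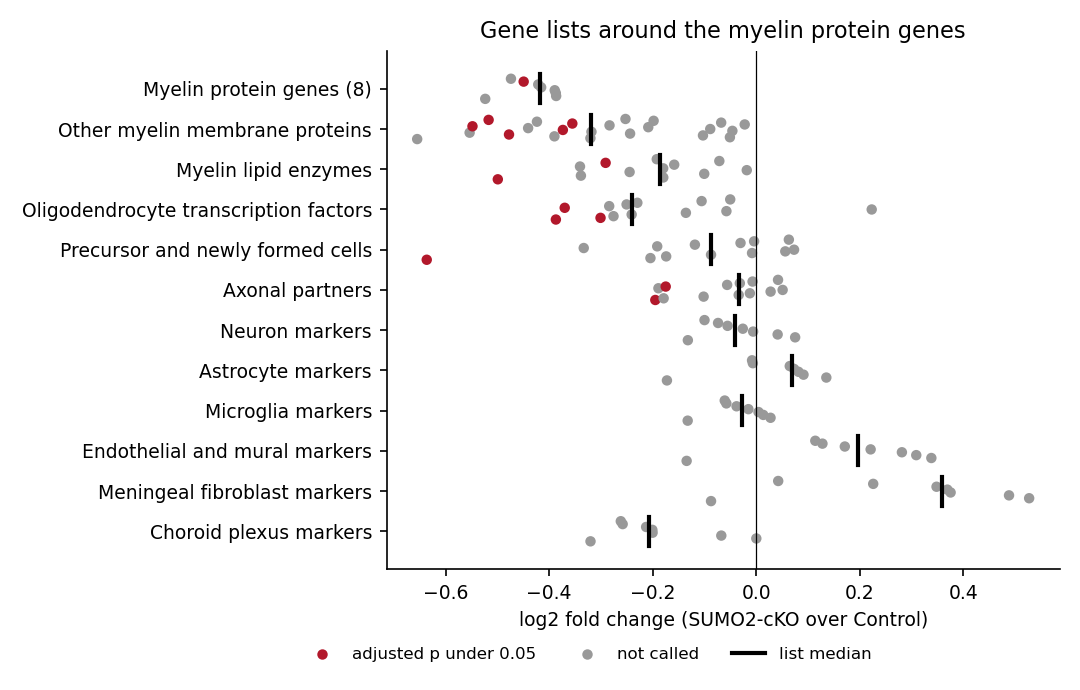
Log2 fold change (SUMO2-cKO over Control) of each measured gene in the authors' deposited table, by list, with list medians as black bars and genes called at an adjusted p under 0.05 in red. Medians are -0.42 for the 8 myelin genes, -0.32 for the myelin membrane list, -0.19 for the lipid list, -0.24 for oligodendrocyte factors and -0.09 for precursor and newly formed cell markers.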

How the data were processed

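The series measured hippocampal RNA in 4 SUMO2-cKO and 4 Control samples by stranded mRNA sequencing. Tools listed, with no version, in the submitters' processing notes are DESeq2, HTSeq, STAR, cutadapt and Trim Galore. No genome build, annotation or strand setting was given in the sources used here. Per the file headers, the authors deposited a log2 fold change (KO over WT), a Wald statistic, which is a score in units of its SE, a p-value and the adjusted p for each of 17171 genes. A further 8 columns of normalized values match no sample label and were used in no step.

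A model fitted to the samples had been planned. As those columns could not be tied to groups, the authors' DESeq2 comparison was described instead. Dividing the fold change by that statistic gave the SE, and intervals are 95% normal intervals. Benjamini-Hochberg values recomputed from the p-values matched the deposited ones to within 4.2e-15. The interval and adjustment code was tested on simulated data. Positions and shared 50-base windows (either strand) came from GENCODE M21 on GRCm38, which held 16955 of the identifiers. Promoter windows came from RefSeq, taking for each gene the entry nearest to its GENCODE start and printing the bases before both starts. Named genes are all 9 members, Sumo2 and Sumo3, and of each of 8 lists the called members and the 3 with the smallest p; exceptions are stated. Members and lists were chosen with earlier results of these data known, so no list was tested. Other thresholds and other sets of adjusted genes were tried as alternatives. The software was Python 3.11.15 with scipy 1.17.1, pandas 2.3.3, matplotlib 3.10.9 and numpy 2.4.6.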

Additional observations from a re-analysis of the deposited data

How the results depend on the processing

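The call of Mog was kept when p-values were adjusted over coding genes alone, at an adjusted p under 0.1 and over genes with an SE at or below 0.25, a setting chosen after seeing the data (adjusted p = 0.0316 to 0.0385). It was lost with Bonferroni and with a fold of at least 1.5, which left 0 called members, 1 called gene in the other lists (against 13) and 79 and 67 calls over all genes (against 257). Both thresholds are stricter by construction. Over genes with an SE at or below the median no myelin gene could be tested, and 6 list genes and 152 genes in all were called. An adjusted p under 0.1 gave 20 called list genes, 1 of them higher. The other member results, 42 of 44, were on the same side of the threshold. Part of that count was fixed in advance, since the looser and stricter thresholds could move a call in a single direction only. No paired analysis was possible because no column of sample values could be tied to a replicate number. Also not run for that reason were other tools, normalizations, filters and pseudocounts, and leaving out each library. What depth limits is seen only through the SE.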

Other observations

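The families to which some of the myelin genes belong were also looked at. Pllp, a relative of Mal that was called lower, was counted with the myelin membrane proteins. Of 11 other genes of the MARVEL and M6 proteolipid families, DESeq2 called none in the authors' deposited table, none reached an unadjusted p under 0.05, and the median was -0.04. Over all genes 0.530% were called lower and 0.967% higher. Gpm6b stood at -0.08 (SE 0.0506), Marveld1 at 0.17 (SE 0.114) and Mal2 at -0.10 (SE 0.0680). Of 11 other measured claudins none was called, 4 reached an unadjusted p under 0.05 (3 lower and 1 higher, against 4.17% and 4.20% of all genes), and the authors' deposited table gave a median of -0.33 with a typical SE (median) of 0.381. Cldn12 stood at -0.16 (SE 0.0592), the endothelial claudin Cldn5 at 0.34 (SE 0.134) and Cldn22 at -0.85 (SE 0.356). Cldn7, Cldn15 and Cldn20 were not in the table.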
